A study of Mus musculus with 18 samples.

Results

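The mouse retina was compared at 2 h and at 24 h after it had been detached by a subretinal injection that contained INS37217, to find which genes rose and which fell between the early response and the next day. The comparison takes the 3 arrays titled INS37217 at 2 h and the 3 arrays titled INS37217 at 24 h, chosen by their titles, 6 of the 18 arrays of the series. All mice were Balb/cJ, an albino strain, and each array received 7 ug of labelled total RNA from a pool of more than 5 retinas. The treated eyes received 1 uL of saline with 10 uM INS37217, and the saline eyes received 1 uL of saline alone, so every group carries a detachment made by injection. Both treatments were sampled at 2 h, 24 h and 7 days with 3 pools each, which the study's design text calls biological replicates; at 24 h that text describes the retina as attached again but still misfolded. No uninjected retina was analysed here, so the changes are between 2 times after injection and not from a resting retina. The source names of 5 of the 6 INS37217 arrays used, and of 8 of all 9, speak of saline only, and the groups therefore rest on the titles.

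INS37217, also called denufosol, is a stable dinucleotide that activates P2Y2, a receptor for extracellular nucleotides found on the retinal pigment epithelium. Activation of that receptor is known to make the epithelium absorb fluid from beneath the retina. Detachment parts the photoreceptors from the pigment epithelium, which recycles their visual pigment and takes up their shed outer segments. Injured retina is known to switch on immediate early genes and cytokines quickly, and Mueller glia, the radial glia that span the retina, later turn reactive. Interferons act through STAT and IRF transcription factors that bind short GAAA repeats near the start of antiviral genes.

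Values are log2 signals after RMA (robust multi-array average), so a difference of 1 is a doubling, and the threshold of every call is a limma p below 0.05 after Benjamini-Hochberg adjustment over the 22626 probe sets tested. The 3 replicate numbers entered the fit as a block, because same-numbered arrays of different groups deviated from their group means together (r 0.426 to 0.921). Replicates 2 and 3 of different groups also did (r 0.363 to 0.725), while replicate 1 went against both (r -0.847 to -0.501). Deviations from a mean of only 3 arrays cancel within a group, so these further correlations follow in part from the first. Each gene is given by its brightest probe set with 1 gene. Between 2 h and 24 h with INS37217, 5002 probe sets passed (22.1%), 2626 of them higher at 24 h (11.6%) and 2376 lower (10.5%). Over the 12393 genes, 1358 rose (11.0%), 1478 fell (11.9%) and the median change was -0.06. The counts of each gene list below are to be read beside these shares. The calls of Ctss, Dnajb1, Mcm4, P2rx3 and Uqcrc1 below also ended when single arrays were left out. A change of at least 1 on the log2 scale was reached by 477 probe sets (2.11%), 295 of them higher (1.3%) and 182 lower (0.804%), and by 187 of the rising genes (1.51%) and 125 of the falling genes (1.01%), and the ranges of the 3 arrays per time lay apart for 2713 genes (21.9%). Without the block the calls dropped to 1476 probe sets (730 higher, 3.23%, and 746 lower, 3.3%). In both INS37217 groups replicates 2 and 3 were closer to each other (r across probe sets 0.9944 to 0.9961) than replicate 1 was to either (0.9755 to 0.9809). Beta-actin probe sets near the 3' end of the transcript read above those near its 5' end, a gap that reflects RNA integrity and labelling, by 0.70 to 0.78 at 2 h and 0.61 to 0.65 at 24 h with INS37217, and 0.93 to 1.10 and 0.52 to 0.69 with saline; its part in the changes below was not tested. Values near 3.7 to 3.8, the 5th percentile of these arrays (3.71 to 3.82), lie at the floor of the scale, where a fold change is approximate.

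**Figure D1:**
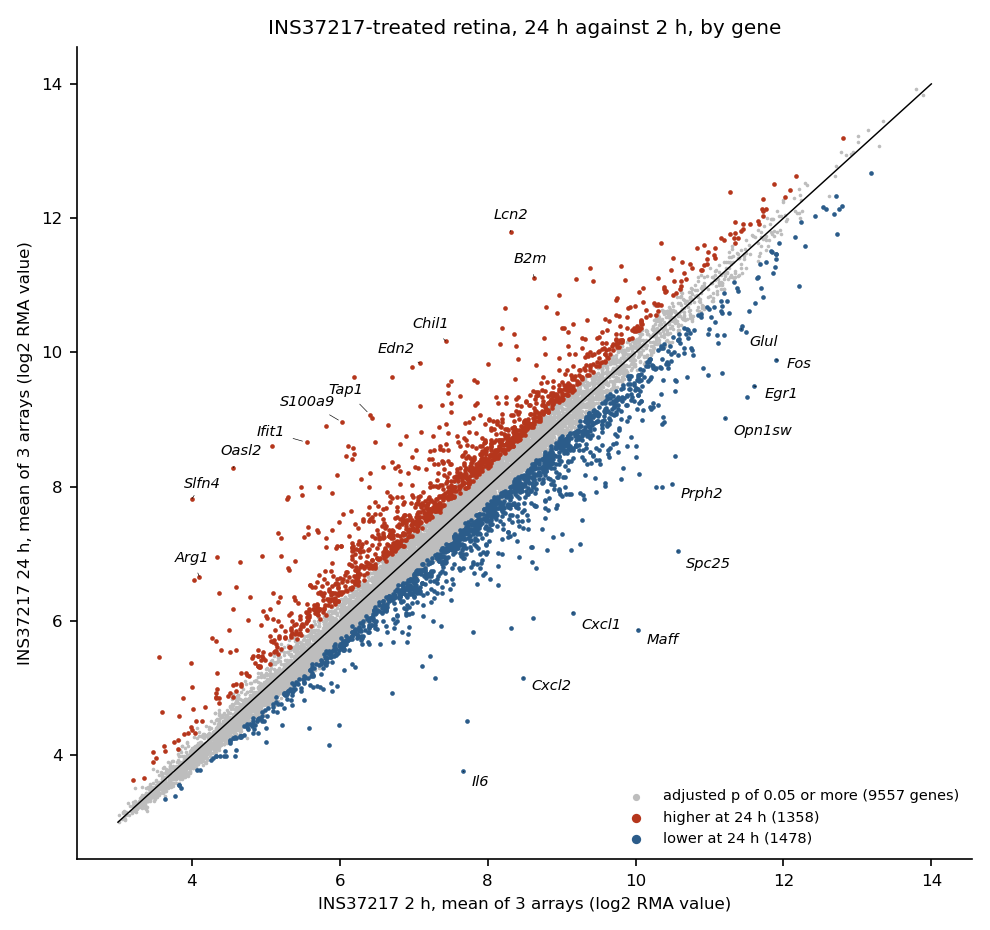
Each point is 1 of 12393 genes, with its mean log2 RMA value over 3 arrays at 2 h after INS37217 on the horizontal axis and at 24 h on the vertical axis; the line marks equal values. The 1358 genes higher at 24 h (red) and 1478 lower (blue) passed an adjusted p of 0.05. Slfn4, Oasl2 and Lcn2 stand far above the line, and Maff, Il6 and Spc25 far below it.

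The early transcription factors of the 2 h retina were lower the next day. Of 28 measured immediate early transcription factors, 20 fell, none rose and 8 did not pass (16 fell without the block), with a median change of -0.80 against -0.06 over all genes. Maff, a small leucine zipper factor, read 10.00, 10.16 and 9.92 at 2 h in replicates 1, 2 and 3 and 5.95, 5.86 and 5.80 at 24 h. It fell by 4.16, the largest measured fall (17.8-fold; SE 0.15, adjusted p = 6.5e-14), though that of Il6 below ended at the floor of the scale and may be understated, and the 2 times did not overlap. Fos, a subunit of the AP-1 factor, read 11.65 to 12.06 at 2 h and 9.86, 10.00 and 9.82 at 24 h. Every 24 h array of Fos lay below every 2 h array, and it fell by 2.01 (SE 0.11, adjusted p = 1.9e-11). Egr1, a zinc finger factor induced by many stimuli, fell by 2.10 (SE 0.12, adjusted p = 3.7e-11), from 11.70, 11.59 and 11.50 to 9.61, 9.40 and 9.49. Smaller falls were those of Arc, a synaptic plasticity gene (-1.97), the AP-1 subunit Fosl1 (-1.61), the orphan nuclear receptor Nr4a1 (-1.43) and the stress factor Atf3 (-0.96). Fosb fell by 2.14 in the fit, but its 3 arrays at 2 h ran from 6.24 to 8.60. Junb was a member that did not pass, with means of 8.62 at 2 h and 8.82 at 24 h (adjusted p = 0.25). At 7 days Fos averaged 9.10 and Egr1 8.86, below their 24 h means of 9.89 and 9.50.

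Serum response factor, which binds the CArG box in the promoters of immediate early genes, is shown with a target because both fell: Srf itself fell by 0.96 (SE 0.10, adjusted p = 2.7e-07; dimmer probe set -0.19) and the factor Egr2 fell by 0.81 (SE 0.14, adjusted p = 0.00027). Of 28 measured genes of the list, 21 had a promoter in the RefSeq table (GRCm38.p6), and 5 of their 27 promoters (18.5%) held a CArG box on either strand in the 250 bases before the start, against 1.47% of all 32851 promoters. Those 5 belong to Srf and, as 4 annotated starts, to Egr2. The cyclic AMP response element TGACGTCA was in 2 of the 27 (7.41%, Btg2 and Maff) against 1.55% of all. The same promoters were searched for other motifs. The interferon response element described below was also in 2 of the 27 (7.41% against 2.98% of all), and NF-kB letters were in 22 (81.5% against 45.8%). AP-1 and STAT letters were in 0 of the 27 (6.75% and 7.02% of all). The 250 bases before the start follow, with the CArG boxes in capitals, for Srf at chr17:46556163-46556412 on the minus strand and for 1 start of Egr2 at chr10:67537619-67537868 on the plus strand; a match is a run of letters and no measured binding site.
Srf: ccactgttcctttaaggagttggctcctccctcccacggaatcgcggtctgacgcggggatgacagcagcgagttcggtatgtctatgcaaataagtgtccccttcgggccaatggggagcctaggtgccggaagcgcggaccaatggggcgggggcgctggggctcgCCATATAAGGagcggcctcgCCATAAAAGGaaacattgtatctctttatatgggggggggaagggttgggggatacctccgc
Egr2: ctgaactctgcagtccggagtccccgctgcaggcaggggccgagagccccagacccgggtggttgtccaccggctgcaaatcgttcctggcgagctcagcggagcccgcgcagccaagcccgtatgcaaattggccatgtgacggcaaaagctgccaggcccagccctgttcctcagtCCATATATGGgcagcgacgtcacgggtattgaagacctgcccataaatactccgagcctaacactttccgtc

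Some inhibitors that damp the same signals fell too. Of 22 feedback inhibitors of MAP kinase and cytokine signals, 9 fell, 1 rose and 12 did not pass (median -0.27; 5 fell and none rose without the block). Zfp36, which binds AU-rich messages of cytokines and shortens their life, fell by 1.77 (SE 0.12, adjusted p = 9.2e-10), and Dusp1, a MAP kinase phosphatase, fell by 1.39. Gadd45a (-1.22) and Errfi1 (-1.18), an inhibitor of the EGF receptor, passed with the block but not without it (adjusted p = 0.13 and 0.093). Socs3, the inhibitor of STAT3 signals, did not pass, with means of 9.60 and 9.58 (adjusted p = 0.88), and averaged 7.81 at 7 days.

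Among chemokines and cytokines the 2 directions were equally common: of 28 measured, 8 fell, 8 rose and 12 did not pass (6 fell and 5 rose without the block; median -0.01). Il6 read 6.73, 8.16 and 8.11 at 2 h and 3.83, 3.60 and 3.84 at 24 h, and it fell by 3.91 (15.0-fold; SE 0.24, adjusted p = 9.9e-11). All 3 arrays at 24 h sat at the floor of the scale, so the size of that fall is approximate. Cxcl2 fell by 3.33 (SE 0.26) and Cxcl1 fell by 3.03 (SE 0.17), both attractants of neutrophils. Ccl2, which attracts monocytes, was still at 7.78, 8.36 and 8.25 at 24 h after 9.10, 9.45 and 9.81 at 2 h, and it fell by 1.32 (SE 0.12, adjusted p = 2.5e-08). Il1b fell by 0.85 (SE 0.16, adjusted p = 0.00065). Other monocyte and stromal chemokines rose: Ccl6 by 2.55 (SE 0.19), Ccl12 by 2.23 (SE 0.15), Cxcl12 by 1.55 and Ccl9 by 1.13. Ccl12 went from 4.62, 4.81 and 4.52 to 6.47, 7.20 and 6.96, with no overlap.

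Other genes among the 30 largest falls came from several lists or from none. Ptx3, a pentraxin of innate immunity, fell by 3.22 (SE 0.12, adjusted p = 1.2e-13), and Lif, the gp130 cytokine that Mueller glia make after injury, fell by 2.56 (SE 0.12, adjusted p = 7.1e-13), although a dimmer Lif probe set changed by only -0.54. F3, tissue factor of the clotting cascade, read 7.57, 8.72 and 8.65 at 2 h and 5.50, 5.98 and 6.18 at 24 h (-2.43), and Plat, the plasminogen activator of clot removal, fell by 2.11. The growth factors Inhba (-1.88) and Hbegf (-1.72), the prostaglandin synthase Ptgs2 (-1.80) and the matrix-bound signal Ccn1 (-2.07) moved the same way. The photoreceptor SAM domain gene Samd11 (-1.85), the cell cycle regulator Rgcc (-1.78), the hyaluronan-binding Tnfaip6 (-1.71) and Phlda1 (-1.71) were lower at 24 h too. Rcan1, an inhibitor of calcineurin, fell by 2.29 and Ifrd1 fell by 2.17, and neither group of arrays overlapped the other. Icam1, the adhesion ligand for leukocyte integrins, fell by 1.74 (SE 0.09), while the integrin chains Itgb2 (0.71, SE 0.13) and Itgam (0.49, SE 0.12) rose.

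Stress proteins moved both ways. Of 16 targets of the antioxidant factor NRF2 and metallothioneins, 5 fell and 4 rose (3 and 2 without the block; median -0.11). Srxn1, which repairs oxidised peroxiredoxins, fell by 2.36 from 10.25, 10.39 and 10.43 to 7.97, 7.99 and 8.02, and its 4 probe sets ranged from -2.36 to -0.40. The metal-binding Mt2 fell by 1.22 and Mt1 fell by 0.70, while Txn1 rose by 0.71 (dimmer probe set -0.27); Hmox1, heme oxygenase, read 7.91 and then 8.08 on average (adjusted p = 0.27). Of 20 heat shock proteins and co-chaperones, 6 rose and 4 fell (2 rose without the block). Hspa1b (-0.96), Bag3 (-0.98) and Hspb1 (-0.67) fell, and Hspa8 (0.65), the co-chaperone Dnajb1 (0.55; adjusted p = 0.0065, and 0.58 without the block) and the mitochondrial co-chaperonin Hspe1 (0.49) rose. Of 24 genes of endoplasmic reticulum stress and amino acid supply, 9 rose and 4 fell (5 and 1 without the block). Asns, asparagine synthetase, rose by 0.85, and the stress kinase inhibitor Trib3 fell by 0.53.

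Interferon-induced antiviral genes had the highest list median: of 27 measured, 23 rose and none fell, 4 did not pass, and the median change was 1.82 (20 rose without the block). With the mean of each gene's probe sets the median stayed at 1.82 and that of the GTPases below was higher, 1.93. The mean of the list was 5.88 to 6.0 on the 2 h arrays and 7.62 to 7.83 on the 24 h arrays, and 6.26 to 6.39 at 7 days. Slfn4, a Schlafen gene of myeloid cells, read 4.08, 3.97 and 3.94 at 2 h and 7.65, 7.95 and 7.85 at 24 h. That was the largest measured rise of any gene, 3.82 (14.1-fold; SE 0.15, adjusted p = 1.3e-13), from a level near the floor, and the 2 times did not overlap. Oasl2, a relative of the oligoadenylate synthetases, rose by 3.73 (SE 0.11, adjusted p = 2.1e-15), from 4.61, 4.70 and 4.36 to 8.49, 8.31 and 8.05. Ifit1, which binds foreign RNA caps, read 5.66, 5.31 and 5.69 and then 8.42, 8.69 and 8.86, a rise of 3.10 (SE 0.14, adjusted p = 9.6e-13). Usp18, the feedback protease of interferon receptors, rose by 3.52 and Rtp4 by 3.44, though a second Rtp4 probe set rose only by 0.37. Ifit2 (2.39), the sensor Ifih1 (2.27), the membrane protein Ifitm3 (2.42), the tether Bst2 (2.37) and the ADP-ribosyl transferases Parp12 (3.09), Parp14 (2.14) and Parp9 (2.40) rose together with the factors Irf9 (2.93) and Irf7 (2.27) that carry the signal to the nucleus. For Irf9 replicate 1 stood lower at 24 h, with 8.95 against 9.93 and 10.04.

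Interferon-inducible GTPases, which attack the vacuoles of intracellular microbes, rose with them: 7 of 8 measured rose, also without the block, and the median change was 1.71. Igtp read 7.12, 6.92 and 6.91 at 2 h and 9.46, 9.88 and 9.99 at 24 h, a rise of 2.79 (SE 0.13, adjusted p = 8.8e-13). Gbp6 rose by 2.58, Irgm2 by 2.51, Irgm1 by 1.93, Iigp1 by 1.49 and Gbp3 by 1.41. Gbp2 was the member that did not pass, at 7.03, 6.80 and 7.24 and then 6.52, 6.98 and 7.01 (adjusted p = 0.29), so its 2 times overlapped.

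The interferon response element is shown because these members moved together. The letters GAAA, any 2 bases and GAAA again, on either strand in the 250 bases before the start, were in 6 of 7 promoters (85.7%) of the 6 GTPase genes that the RefSeq table (GRCm38.p6) holds, and in 6 of 22 promoters (27.3%) of the 20 antiviral genes it holds, against 2.98% of all 32851 promoters. The 6 GTPase genes were Gbp2, Gbp3, Gbp7, Igtp, Irgm1 and Irgm2, so the letters also stand before Gbp2, whose level did not pass. The 6 antiviral genes were Bst2, Ifit1, Ifit3, Oas1a, Rsad2 and Stat2. Other motifs were searched too. STAT letters were in 3 of the 7 GTPase promoters (42.9%) and 4 of the 22 antiviral promoters (18.2%), against 7.02% of all. AP-1 letters were in 2 of the 7 (28.6%) and 4 of the 22 (18.2%), against 6.75%. NF-kB letters were in 1 of the 7 (14.3%) and 13 of the 22 (59.1%), against 45.8%. The bases before the start follow for Ifit1 (chr19:34640639-34640888, plus strand), Ifit3 (chr19:34583279-34583528, plus), Igtp (chr11:58199306-58199555, plus), Irgm2 (chr11:58214727-58214976, plus) and Irgm1 (chr11:48871421-48871670, minus), with each match in capitals; a match on the other strand reads as TTTC repeats.
Ifit1: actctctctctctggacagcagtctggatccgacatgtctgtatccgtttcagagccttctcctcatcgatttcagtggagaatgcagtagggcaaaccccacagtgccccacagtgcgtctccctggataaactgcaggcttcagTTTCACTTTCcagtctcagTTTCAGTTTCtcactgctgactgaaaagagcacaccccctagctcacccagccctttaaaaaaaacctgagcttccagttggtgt
Ifit3: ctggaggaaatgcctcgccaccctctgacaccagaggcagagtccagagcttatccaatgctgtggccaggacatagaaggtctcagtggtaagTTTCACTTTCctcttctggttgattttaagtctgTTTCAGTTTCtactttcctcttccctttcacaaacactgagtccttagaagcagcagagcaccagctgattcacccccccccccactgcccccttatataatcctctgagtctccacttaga
Igtp: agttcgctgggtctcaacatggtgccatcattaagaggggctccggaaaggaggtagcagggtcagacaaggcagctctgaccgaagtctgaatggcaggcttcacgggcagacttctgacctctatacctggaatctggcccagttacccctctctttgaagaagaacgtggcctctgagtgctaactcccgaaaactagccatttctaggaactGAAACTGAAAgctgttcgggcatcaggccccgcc
Irgm2: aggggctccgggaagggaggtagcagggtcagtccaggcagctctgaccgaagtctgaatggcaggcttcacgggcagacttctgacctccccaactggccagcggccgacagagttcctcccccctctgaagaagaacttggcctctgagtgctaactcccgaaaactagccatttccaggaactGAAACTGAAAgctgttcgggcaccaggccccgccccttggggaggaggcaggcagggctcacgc
Irgm1: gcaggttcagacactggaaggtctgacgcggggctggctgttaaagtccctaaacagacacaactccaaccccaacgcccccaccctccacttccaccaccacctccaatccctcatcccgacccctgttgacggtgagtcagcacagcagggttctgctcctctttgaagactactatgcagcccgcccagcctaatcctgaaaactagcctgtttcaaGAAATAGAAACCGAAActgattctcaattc
Ifit1 and Ifit3 each hold 2 copies, at -104 and -85 and at -156 and -122 from the start. Igtp and Irgm2, which lie close together on chromosome 11, hold 1 copy each, at -34 and -64, within promoters that share a run of 55 identical bases, so they are not independent examples. No binding was measured here.

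Antigen presentation by MHC class I rose as a whole: all 11 measured genes passed, also without the block (median 1.46), and the list mean went from 7.29 to 7.45 on the 2 h arrays to 8.95 to 9.13 on the 24 h arrays. B2m, the invariant light chain, read 8.50, 8.87 and 8.51 at 2 h and 10.88, 11.22 and 11.23 at 24 h, a rise of 2.48 (SE 0.11, adjusted p = 7.9e-13). Tap1, which pumps peptides into the endoplasmic reticulum, rose by 2.66, with its 4 probe sets between -0.08 and 2.66. The immunoproteasome subunits Psmb9 (2.28) and Psmb8 (1.83), the peptide loader Tapbp (1.46) and the heavy chain H2-D1 (1.88) rose too. The 9 probe sets of H2-D1, a gene with near-identical relatives, ran from 0.02 to 2.02. Of MHC class II, carried by professional antigen-presenting cells, 3 of 7 genes rose (2 without the block; median 0.30, and 0.51 over only the brighter probe sets). These were H2-Aa (0.54, SE 0.11), the invariant chain Cd74 (0.54, SE 0.11) and the protease Ctss (0.48, SE 0.15; adjusted p = 0.022, and 0.50 without the block). Of 14 complement components and regulators 8 rose and none fell (median 0.38; 5 without the block). Serping1, the C1 inhibitor, rose by 1.80, factor B (Cfb) by 1.50, C1ra by 1.44 and C1s1 by 1.12, while C1qc rose by 0.43 with the block only (adjusted p = 0.12 without it).

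**Figure D2:**
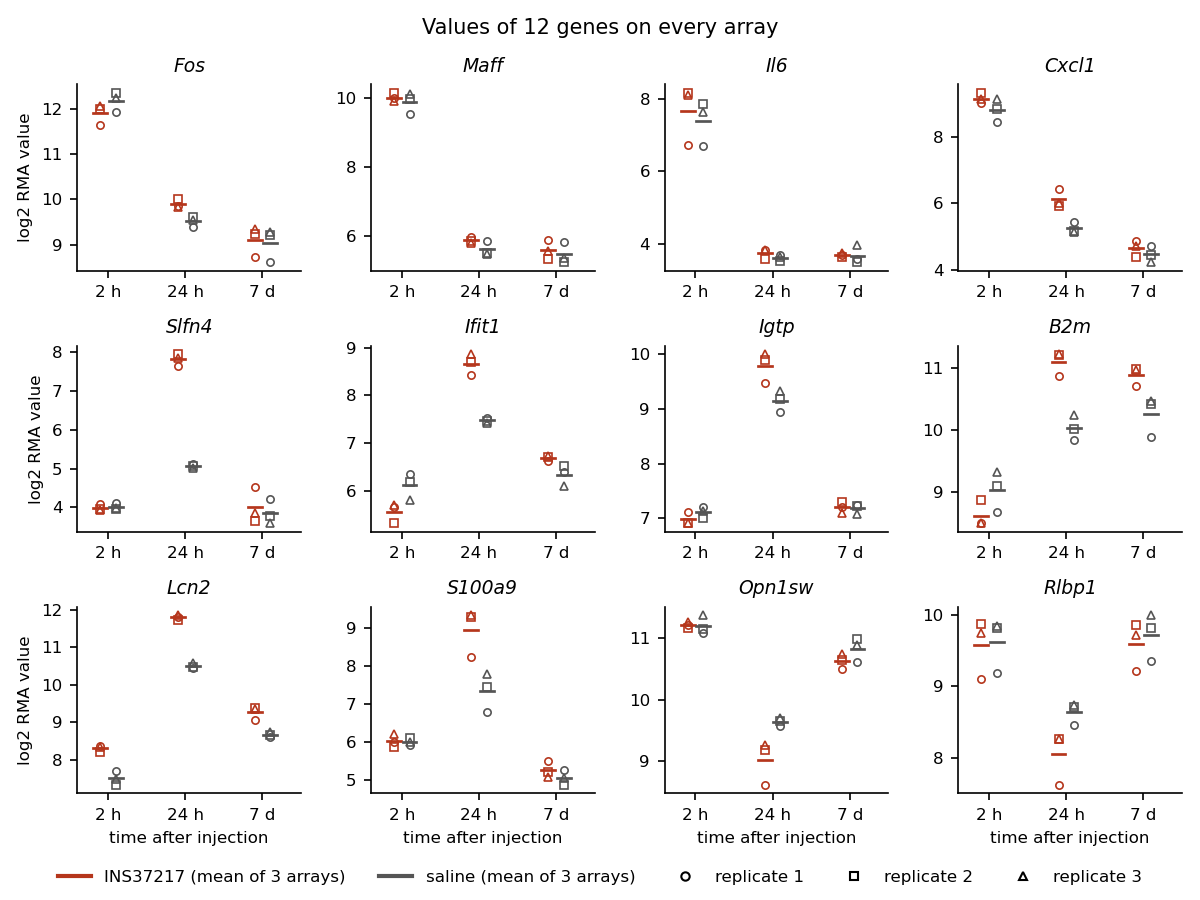
Log2 RMA values of 12 genes on every array at 2 h, 24 h and 7 days, with INS37217 in red and saline in grey; symbols mark replicates 1, 2 and 3 and bars the mean of 3 arrays. Fos, Maff, Il6 and Cxcl1 were lower at 24 h than at 2 h, Slfn4, Ifit1, Igtp, B2m, Lcn2 and S100a9 were higher, and Opn1sw and Rlbp1 were lower; for Slfn4 the INS37217 arrays at 24 h (7.65 to 7.95) stand apart from the saline mean of 5.07.

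Many genes of myeloid cells rose. Of 29 microglia and macrophage genes, 17 rose and 1 fell (13 and 1 without the block; median 0.48), and the list mean moved from 5.88 to 6.01 up to 6.56 to 6.66, and to 7.01 to 7.19 at 7 days. Ptprc, the leukocyte antigen CD45, read 4.67, 4.26 and 4.72 at 2 h and 6.01, 6.36 and 6.13 at 24 h, a rise of 1.62 (SE 0.16, adjusted p = 2.0e-07). Lyz2, lysozyme of macrophages and neutrophils, rose by 1.71 to a mean of 8.29 and averaged 11.00 at 7 days. Arg1, arginase of wound-healing macrophages, rose by 2.56 (SE 0.30) with a wide spread at 24 h, 5.74, 7.42 and 6.83. Cd68 (1.67), Cd53 (1.77) and Lgals3 (1.93) rose too. Among the members that did not pass, the fractalkine receptor Cx3cr1 averaged 5.86 and then 5.87 (adjusted p = 0.93), the receptor Csf1r 8.27 and 8.31 (0.86), Aif1 4.69 and 4.99 (0.097) and P2ry12 4.76 and 4.43 (0.15). At 7 days Csf1r averaged 9.85 and Cx3cr1 6.82. In pooled tissue, more cells of a type and more RNA per cell cannot be told apart, here and for every cell type below.

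Neutrophil genes were split. Of 14 measured, 4 rose and none fell (3 without the block; median 0.04, and 0.62 over only the brighter probe sets): S100a9, S100a8, Lcn2 and Csf3r (0.62; adjusted p = 0.0034, and 0.27 without the block). S100a9, a calcium-binding protein abundant in neutrophils, read 6.0, 5.88 and 6.21 at 2 h and 8.25, 9.29 and 9.33 at 24 h, a rise of 2.93 (SE 0.21, adjusted p = 1.7e-09). Its partner S100a8 rose by 2.53 (SE 0.22), from 5.17, 5.40 and 5.27 to 6.88, 8.26 and 8.29, and replicate 1 was the lowest at 24 h for both. The other 10 members, granule and receptor genes of neutrophils, did not pass. Of 14 genes of T, B and NK cells none passed in either direction (median -0.13; list mean 5.24 to 5.52 at 2 h and 5.06 to 5.56 at 24 h). Among annexins, galectins and S100 proteins, calcium- and sugar-binding proteins of many injured cells, 14 of 16 rose and none fell (median 1.17; 11 without the block). S100a6 rose by 1.89 and Anxa4 by 1.47, and Lgals1 by 1.64, with its 3 arrays at 2 h between 8.71 and 9.87 (adjusted p = 1.4e-10, and 0.061 without the block). Chil1, a chitinase-like protein, rose by 2.74 from 7.40, 7.43 and 7.45 to 9.87, 10.23 and 10.41. Lyz1 rose by 2.51, though its 3 probe sets ranged from -0.13 to 2.51.

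Reactive glia genes moved both ways. Of 23 measured, 11 rose and 5 fell (9 and 5 without the block; median 0.26, and 1.00 over only the brighter probe sets). Lcn2, lipocalin 2, an iron-scavenging protein of reactive glia and neutrophils, read 8.38, 8.21 and 8.33 at 2 h and 11.82, 11.73 and 11.85 at 24 h, a rise of 3.49 (11.3-fold; SE 0.10, adjusted p = 2.1e-15). The arrays within each time differed by less than 0.2, far under the change. Edn2, endothelin 2, a signal that injured photoreceptors send to glia, rose by 2.76 (SE 0.12, adjusted p = 2.8e-13), from 7.03, 6.99 and 7.21 to 10.01, 9.72 and 9.79, and its receptor gene Ednrb rose by 2.01 (SE 0.17). The inhibitor of metalloproteases Timp1 rose by 2.07, the serpin Serpina3n by 1.89, the copper oxidase Cp by 1.29 (7 probe sets, from -0.49 to 1.59), Steap4 by 1.50 and the filament protein Vim by 1.10. Gfap, the glial filament, read 8.12, 7.22 and 7.52 at 2 h and 9.02, 8.43 and 8.37 at 24 h. All 3 pairs rose and the groups did not overlap, with a rise of 0.99 (SE 0.11, adjusted p = 4.7e-07), but replicate 1 was the highest at both times and the call was lost without the block (adjusted p = 0.089). Ptx3, Emp1 (-1.30) and Sphk1 (-1.41) were members that fell.

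Of 17 genes of the gp130 cytokines and STAT3, 7 fell and 3 rose (median -0.20). The receptor chain Il6st rose by 0.93 (SE 0.12), Bcl3 by 1.17 and Cebpd by 0.85 (adjusted p = 0.071 for Cebpd without the block), and Lif, Cebpb (-0.94) and Pim1 (-0.87) fell. Of 22 growth and survival factors of the retina, 6 rose and 5 fell (median -0.05). Fgf2, a survival factor for photoreceptors, rose by 1.89 (SE 0.23, adjusted p = 3.6e-06), from 4.77, 4.60 and 4.44 to 5.73, 6.86 and 6.90, with replicate 1 lowest at 24 h. Igf2 fell by 0.98.

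Some repair genes moved, in a comparison where 11.0% of all genes rose and 11.9% fell. Of 21 matrix and wound repair genes 5 rose and 3 fell (3 and 1 without the block; median 0.04), and of 19 matrix proteases and inhibitors 6 rose and 4 fell (median 0.13). Mmp3, stromelysin, read 4.40, 4.33 and 4.30 at 2 h and 6.49, 7.29 and 7.08 at 24 h, a rise of 2.61 (SE 0.19, adjusted p = 1.2e-09). The proteases Adamts1 (-2.09) and Adamts4 (-1.05) and the inhibitor Timp3 (-1.34) fell. Col3a1, a fibrillar collagen, rose by 2.02 from 5.01, 4.64 and 5.19 to 6.46, 7.24 and 7.21, although a dimmer probe set changed by 0.08. Tgfbi rose by 1.59, with 6.85, 8.64 and 8.50 at 24 h, and Fn1, fibronectin, by 0.70 (dimmer probe set -0.61). Of 24 cytoskeleton genes 12 rose and 1 fell (median 0.34; 6 and 1 without the block): Msn rose by 1.26 and Capg by 1.16, and Flnc fell by 1.03.

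Markers of tissues around the retina are given beside these groups, since pools may hold some of them; their part in the changes was not tested. Of 14 fibroblast and sclera genes 3 rose and 3 fell (2 and 1 without the block; median 0.01; list mean 6.11 to 6.35 at 2 h, 6.40 to 6.43 at 24 h), Dcn rising by 1.18 (SE 0.16, adjusted p = 1.2e-05) and Fmod changing by -0.76. Of 15 pigment epithelium and melanocyte genes 6 rose and 1 fell (median 0.21; list mean 7.57 to 7.79 and 7.89 to 8.10). The melanosome genes Pmel (1.07), Tyrp1 (0.74), Tyr (1.13; a dimmer probe set changed by -0.06) and Dct (0.64; adjusted p = 0.11 without the block) and the glycoprotein Gpnmb (1.82) rose, and Rpe65, the isomerase of the visual cycle, fell by 0.77 (SE 0.10, adjusted p = 1.2e-05), from 8.30, 8.17 and 8.40 to 7.45, 7.50 and 7.60. Of 15 keratin-list genes of the cornea and conjunctiva 3 rose (median -0.01), among them Aldh3a1 by 1.96 and Krt12 by 0.72. Of 22 endothelium and pericyte genes 5 rose and 1 fell (3 and none without the block; median 0.01): the vascular receptor Kdr (0.73), Cldn5 (0.72) and Acta2 (0.88; dimmer probe set -0.29) rose, and Flt1 fell by 0.60 (adjusted p = 0.059 without the block). Of 6 erythrocyte genes 2 fell (1 without the block), where Alas2 fell by 1.02, and of 16 extraocular muscle genes none passed (median -0.13). Of the neural markers, the rod list was high throughout, with means between 10.80 and 11.46 on these 6 arrays. The amacrine and horizontal cell list lay lower, at 8.05 to 8.16 and then 7.83 to 7.91. The ganglion cell list lay at 7.58 to 7.78 and then 7.46 to 7.67, close to the pigment epithelium list.

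Most rod genes fell. Of 24 rod phototransduction and outer segment genes, 17 fell, none rose and 7 did not pass (15 fell without the block); all 24 differences were negative and the median was -0.52. The list mean was 11.29 to 11.46 at 2 h, 10.80 to 10.87 at 24 h and 11.03 to 11.13 at 7 days. Prph2, the tetraspanin that shapes the disc rim, read 10.67, 10.36 and 10.45 at 2 h and 8.04, 7.94 and 8.14 at 24 h, and it fell by 2.45 (5.48-fold; SE 0.14, adjusted p = 1.9e-11), and it averaged 7.37 at 7 days. No other rod member fell as far: Rdh12, a retinol dehydrogenase, fell by 1.05, Guca1a, which activates guanylate cyclase, fell by 0.96, and the channel subunits Cngb1 and Cnga1 changed by -0.93 and -0.72. The transcription factors Crx (-0.70) and Nrl (-0.62) and the phosphodiesterase subunit Pde6b (-0.61) fell by less.

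Of 12 cone genes 8 fell and 2 rose (6 and none without the block; median -0.59, and -0.96 over only the brighter probe sets). Opn1sw, the short-wave opsin, read 11.22, 11.16 and 11.26 at 2 h and 8.62, 9.18 and 9.26 at 24 h, and it fell by 2.19 (SE 0.11, adjusted p = 3.4e-12); a dimmer probe set changed by -0.89. Opn1mw, the medium-wave opsin, fell by 0.96, the cone transducin Gnat2 fell by 0.99, the channel subunit Kcne2 fell by 1.74 and the phosphodiesterase Pde6c fell by 0.67. Arr3, cone arrestin, which ends the opsin signal, fell by 1.06 (SE 0.12, adjusted p = 5.3e-07), from 9.44, 9.75 and 9.87 to 8.44, 8.68 and 8.76, with no overlap. Gnb3 rose by 0.60 (SE 0.10; adjusted p = 0.00019, with no call without the block), a transducin beta chain that bipolar cells also use. At 7 days Opn1sw averaged 10.63, Opn1mw 9.51 and Gnat2 10.08.

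Genes of the inner retinal neurons mostly had smaller changes. Of 11 bipolar cell genes 9 fell and 1 rose (4 and none without the block; median -0.40), among them Rgs11 (-0.93) and Pcp2 (-0.91), whose 3 probe sets ran from -0.91 to -0.48. Of 15 amacrine and horizontal cell genes 4 fell (none without the block; median -0.23), and of 17 ganglion cell and axon genes 3 fell and 1 rose (none and 1 without the block; median -0.16). The riser was Gap43, a protein of growing axons, by 1.23 (SE 0.10, adjusted p = 1.1e-08, and 0.049 without the block), from 6.47, 6.92 and 7.04 to 7.45, 8.39 and 8.29. Of 17 synaptic vesicle and receptor genes 6 fell and 2 rose (3 and 1 without the block; median -0.21), and of 16 potassium channel genes 7 fell and 1 rose (median -0.21).

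Genes of Mueller glia fell more often than they rose. Of 20 measured, 9 fell and 3 rose (7 and 1 without the block; median -0.24). Rlbp1, the retinaldehyde carrier, read 9.11, 9.87 and 9.75 at 2 h and 7.63, 8.26 and 8.27 at 24 h, and it fell by 1.52 (SE 0.10, adjusted p = 2.5e-10), and averaged 9.60 at 7 days. Glul, glutamine synthetase, which clears transmitter glutamate, fell by 1.08 (SE 0.13, adjusted p = 3.9e-06), from 11.20, 11.84 and 11.26 to 10.49, 10.38 and 10.19. Car14, a carbonic anhydrase, fell by 1.54 and Abca8a fell by 1.06, with means of 9.46 and 10.21 at 2 h and of 9.75 and 10.35 at 7 days. Sox9, a glial transcription factor, fell by 0.97. Spc25, in this list as a transcript of adult Mueller glia and otherwise a kinetochore protein, fell by 3.53 (SE 0.10), but a dimmer probe set changed by only -0.25. Vim was one of the members that rose.

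**Figure D3:**
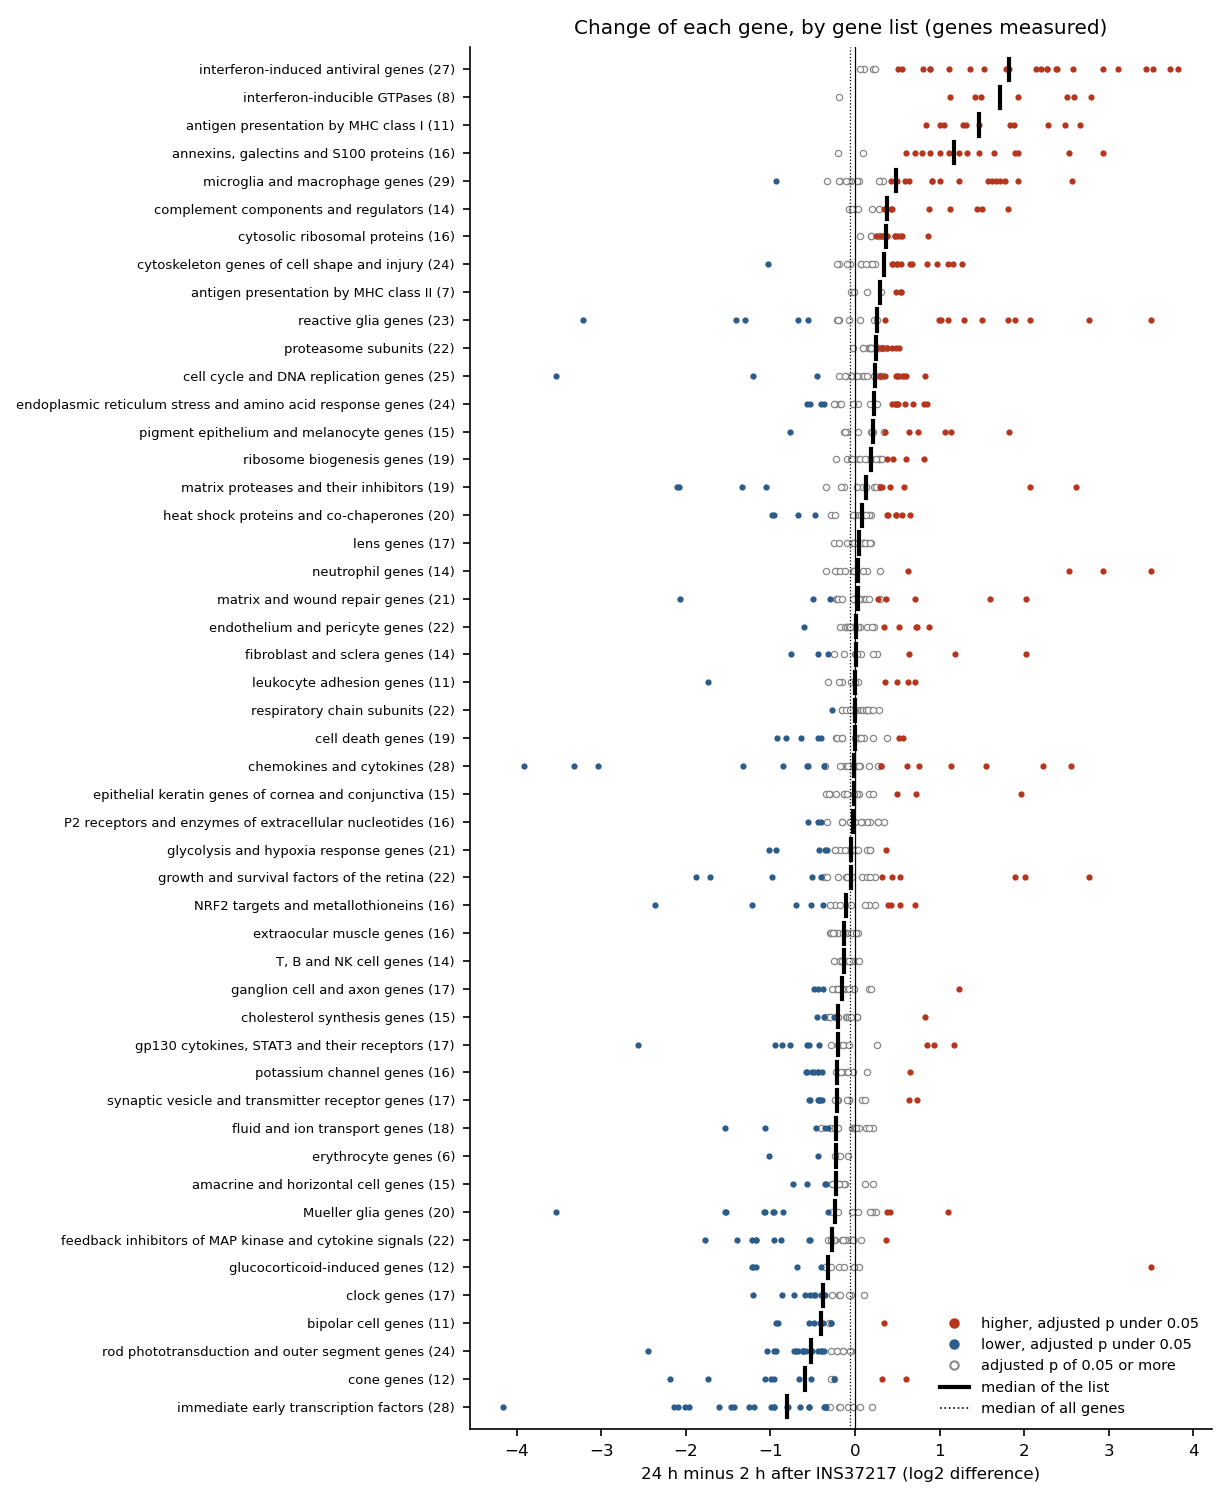
Each point is the change of 1 gene from 2 h to 24 h after INS37217 (log2 difference, horizontal axis), in 49 gene lists ordered by their median (black bar); red and blue points passed an adjusted p of 0.05 upward and downward, open points did not, and the dotted line is the median of all genes. The interferon-induced antiviral genes (median 1.82) and GTPases (1.71) lie at one end, and the immediate early factors (-0.80), cone genes (-0.59) and rod genes (-0.52) at the other.

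Of 17 clock genes 11 fell and none rose (4 without the block; median -0.38), led by Per1 (-1.21), Cry2 (-0.86) and Nfil3 (-0.72). The labels give no hour of the day for either time, so time after injection and time of day cannot be told apart for these genes. Of 12 glucocorticoid-induced genes 5 fell and 1 rose (median -0.32); the riser was Lcn2, already described.

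Lists of cell machinery differed in direction, with small changes. Of 16 cytosolic ribosomal proteins 12 rose and none fell (median 0.36), but only 2 without the block; Rplp0 rose by 0.86 (adjusted p = 1.5e-05, and 0.096 without the block). Of 22 proteasome subunits 8 rose (median 0.25) and none without the block, and of 19 ribosome biogenesis genes 4 rose (median 0.19) and none without it, including Npm1 (0.81; adjusted p = 2.4e-06 and 0.25). Of 25 cell cycle and DNA replication genes 9 rose, 3 fell and 13 did not pass (median 0.23; 5 and 3 without the block). Of the replication helicase subunits, Mcm7 (0.82), Mcm4 (0.58) and Mcm6 (0.56) rose, while some others did not pass. Mcm4 had an adjusted p of 0.073 without the block. Top2a (0.60; dimmer probe set -0.21) rose too, and the cell cycle inhibitor Cdkn1a fell by 1.20. Of 22 respiratory chain subunits 1 passed (Uqcrc1, -0.27; adjusted p = 0.034, and 0.22 without the block). Of 21 glycolysis and hypoxia genes 5 fell and 1 rose (2 and none without the block; median -0.05), among them Pfkfb3 (-1.02) and Adm (-0.93), and of 15 cholesterol synthesis genes 3 fell and 1 rose (none without the block).

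The drug's own receptor did not pass. P2ry2 read 5.30, 5.45 and 5.47 at 2 h and 5.38, 5.47 and 5.57 at 24 h (change 0.07, SE 0.10, adjusted p = 0.67), and the 2 times overlapped. Of 16 P2 receptors and enzymes of extracellular nucleotides 3 fell and none rose (2 fell without the block). Of all genes 11.9% fell and 11.0% rose, and the list median was -0.03 against -0.06 over all genes. Nt5e, the ectonucleotidase CD73 that makes adenosine, fell by 0.55 (SE 0.09, adjusted p = 0.00011), from 8.73, 8.74 and 8.89 to 8.10, 8.34 and 8.26, and the phosphatase Alpl by 0.44; P2rx3 (-0.40) lost its call without the block (adjusted p = 0.59). Of 18 fluid and ion transport genes 5 fell and none rose (3 without the block; median -0.22). The lactate carrier Slc16a1 fell by 1.06 and the water channel Aqp1 by 0.46, besides Car14. Of 19 cell death genes 5 fell and 2 rose (3 and 1 without the block; median 0.00): Fas (-0.93), Birc3 (-0.82) and Cflar (-0.64; its 4 probe sets from -0.64 to 0.55) fell, and Casp8 rose by 0.57.

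The same interval was then set beside the saline retina, which shares no array with it. With saline alone 6564 probe sets passed between 2 h and 24 h (29.0%), 3638 higher and 2926 lower; with every array set to an equal median the split was 3198 and 3966. The difference between the INS37217 change and the saline change, tested in the same fit, passed for 242 probe sets (1.07%): in 100 the INS37217 change lay above the saline change (0.442%) and in 142 below it (0.628%), and 125 and 110 with equal array medians. By gene these were 69 above (0.557%) and 39 below (0.315%). Only 13 probe sets kept the call without the replicate block. Leaving out 1 array also lowered the count: to 117 and 109 without INS37217 24 h replicate 2 or 3, to 142 without INS37217 2 h replicate 3, to 133 and 143 without saline 2 h replicate 2 or 3, and to 142, 148 and 154 without saline 24 h replicate 1, 2 or 3. Without saline 2 h replicate 2 the saline count was 4360.

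Many interferon genes differed. The difference passed for 11 of 27 antiviral genes and 4 of 8 GTPases, each with the INS37217 change above the saline change. It passed in the other direction for none. Slfn4 rose by 3.82 with INS37217 and by 1.06 with saline, a difference of 2.76 (SE 0.21, adjusted p = 4.9e-07, and 0.00069 without the block); its saline means were 4.02 and 5.07. Ifit1 rose by 3.10 against 1.36 (difference 1.74, SE 0.20, adjusted p = 0.00013), and Oasl2 by 3.73 against 2.14 (1.59, SE 0.16, adjusted p = 2.3e-05). Rsad2, viperin, rose by 1.52 with INS37217 and changed by -0.10 with saline (adjusted p = 0.59), a difference of 1.62 (SE 0.18, adjusted p = 9.7e-05). Ifi44l rose by 1.36 against -0.01 (difference 1.37, SE 0.20, adjusted p = 0.0013, and 0.083 without the block; 3 probe sets from 0.10 to 1.36), and Ifit2 differed by 0.85, a call kept in 3 of 12 fits that each left out 1 array. For Ifit1, Oasl2 and Rsad2 the call of the difference also held without the block (adjusted p = 0.0057 each). The list mean of the antiviral genes was 5.93 to 6.09 at 2 h and 6.96 to 7.04 at 24 h with saline, against 5.88 to 6.0 and 7.62 to 7.83 with INS37217, ranges that overlapped at 2 h and not at 24 h. For the GTPase Iigp1 the difference was 1.43 (SE 0.26, adjusted p = 0.0063) and for Igtp 0.77 (SE 0.18, adjusted p = 0.039); neither passed without the block (0.20 and 0.41), and Igtp kept its call in only 4 of 12 fits that each left out 1 array (highest adjusted p 0.15).

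Beyond the interferon genes, B2m rose by 2.48 against 1.00 (difference 1.48, SE 0.16, adjusted p = 5.5e-05, and 0.079 without the block). It was the only 1 of 11 MHC class I genes whose difference passed, and all 11 also rose with saline (median 1.08). The difference passed upward for 4 of 29 microglia and macrophage genes and 2 of 14 neutrophil genes. It did so for 1 of 14 complement genes, 1 of 19 matrix proteases and inhibitors and 1 of 14 fibroblast and sclera genes, against 0.557% of all genes. The neutrophil genes S100a9 (1.60, SE 0.30) and S100a8 (1.41, SE 0.31), Mmp3 (1.38, SE 0.27), Ptprc (1.04, SE 0.23) and Cfb (1.06, SE 0.21) also rose more with INS37217, at adjusted p of 0.0088, 0.03, 0.0099, 0.029 and 0.015, each over 0.05 without the block. Of the immediate early factors the difference passed for 7 of 28, all with the INS37217 change above the saline change. Nr4a1 averaged 10.38 with INS37217 and 11.41 with saline at 2 h and 8.96 and 9.05 at 24 h (difference 0.93, SE 0.14, adjusted p = 0.0019). Egr1 (0.71, SE 0.17, adjusted p = 0.048), Fos (0.66, SE 0.16, adjusted p = 0.046) and Egr2 (1.20, SE 0.20, adjusted p = 0.0037) differed the same way. Arr3 fell by 1.06 with INS37217 and changed by -0.22 with saline (adjusted p = 0.16); the difference was -0.84 (SE 0.16, adjusted p = 0.0097). Opn1sw (-0.64) and Icam1 (-0.65) also fell further with INS37217. The fibroblast proteoglycan Dcn rose by 1.18 against -0.07, with means of 6.68 and 7.86 for INS37217 and 7.81 and 7.75 for saline (difference 1.25, SE 0.23, adjusted p = 0.0063). Pmel averaged 7.75 with INS37217 and 8.97 with saline at 2 h and 8.82 and 9.08 at 24 h (difference 0.96, SE 0.16, adjusted p = 0.0035). None of the differences of the genes from Nr4a1 to Pmel kept its call without the block. Of the 12 fits that each left out 1 array, the difference was called in 12 for B2m, Nr4a1, Egr2, Dcn and Pmel, in 11 for S100a9, Mmp3 and Arr3, in 10 for Cfb and in 9 for Icam1. It was called in 4 for Ptprc, in 3 for S100a8, in 1 each for Egr1 and Fos and in 0 for Opn1sw.

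**Figure D4:**
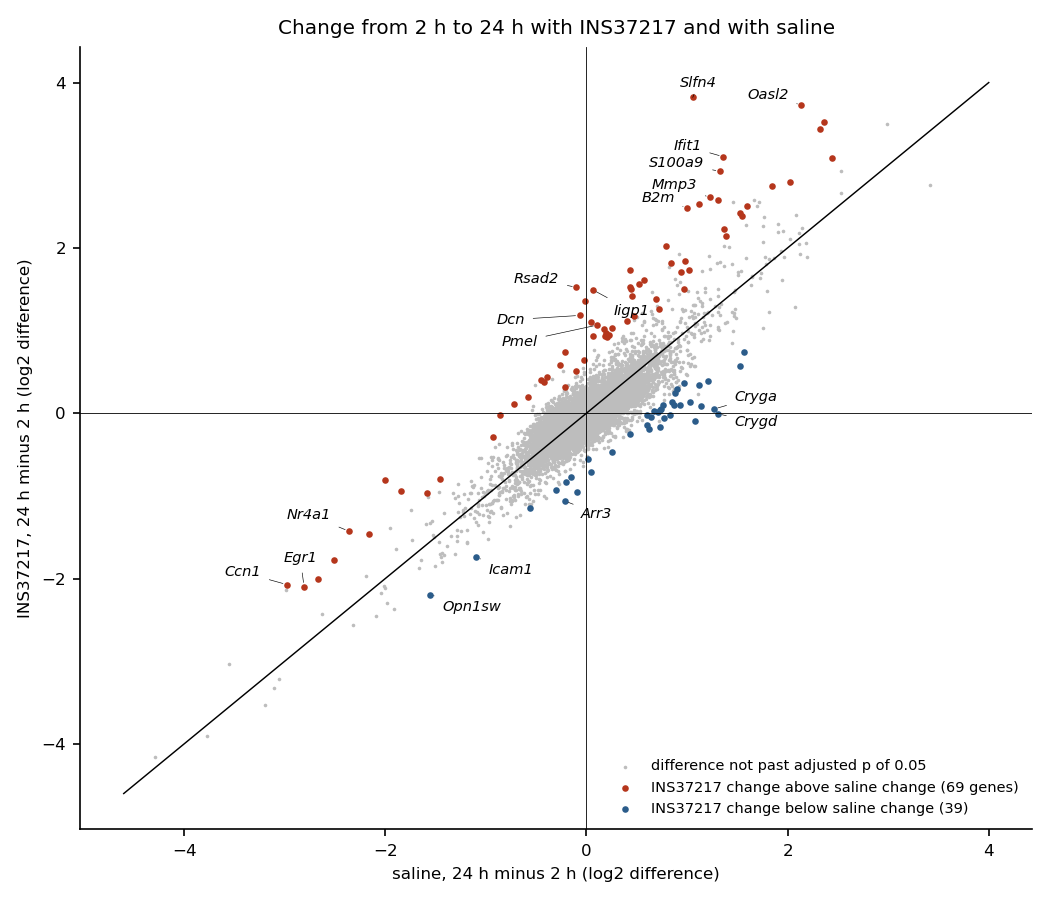
Change from 2 h to 24 h of each gene with saline (horizontal axis) and with INS37217 (vertical axis), both as log2 differences; the diagonal marks equal changes. The 69 red genes lie above it and the 39 blue genes below it by an adjusted p of 0.05 for the difference. Slfn4 is the farthest above, and Crygd, with 1.31 for saline and -0.01 for INS37217, the farthest below.

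Lens genes, and some others, differed in the other direction. None of 17 passed from 2 h to 24 h with INS37217 (median 0.05), 16 rose with saline (median 0.65), and the difference passed for 10. Crygd, a gamma crystallin, read 11.41, 11.22 and 11.16 at 2 h and 10.95, 11.37 and 11.45 at 24 h with INS37217, while its saline mean went from 10.11 to 11.42; the difference was -1.31 (SE 0.16, adjusted p = 0.00029, and 0.026 without the block). Cryga (-1.22), Bfsp1 (-1.17), a filament protein of lens fibres, Crygb (-1.06) and Crygf (-0.89) differed likewise, of which only Crygf kept its call without the block (adjusted p = 0.039). Genes outside the lens list were also among the 10 largest differences of this direction, above or near Crygf in size: the kinesin Kif5c (-0.95, SE 0.16, adjusted p = 0.0039), the ubiquitin ligase Mid1 (-0.89, SE 0.19, adjusted p = 0.021) and the ubiquitin protease Usp22 (-0.85, SE 0.16, adjusted p = 0.0071). Kif5c rose by 0.58 with INS37217 (adjusted p = 0.00084, and 0.41 without the block; dimmer probe set -0.11) and by 1.53 with saline. None of these differences of Kif5c, Mid1 and Usp22 was called without the block, and that of Mid1 was kept in 4 of 12 fits that each left out 1 array. The mean of the lens list lay at 10.30 to 10.42 on the saline 2 h arrays and at 10.96 to 11.11 on the other 9 arrays at 2 h and 24 h. The saline 2 h arrays were also those with the highest 3' minus 5' signal of beta-actin, 0.93 to 1.10, and its part in this difference was not tested.

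**Figure D5:**
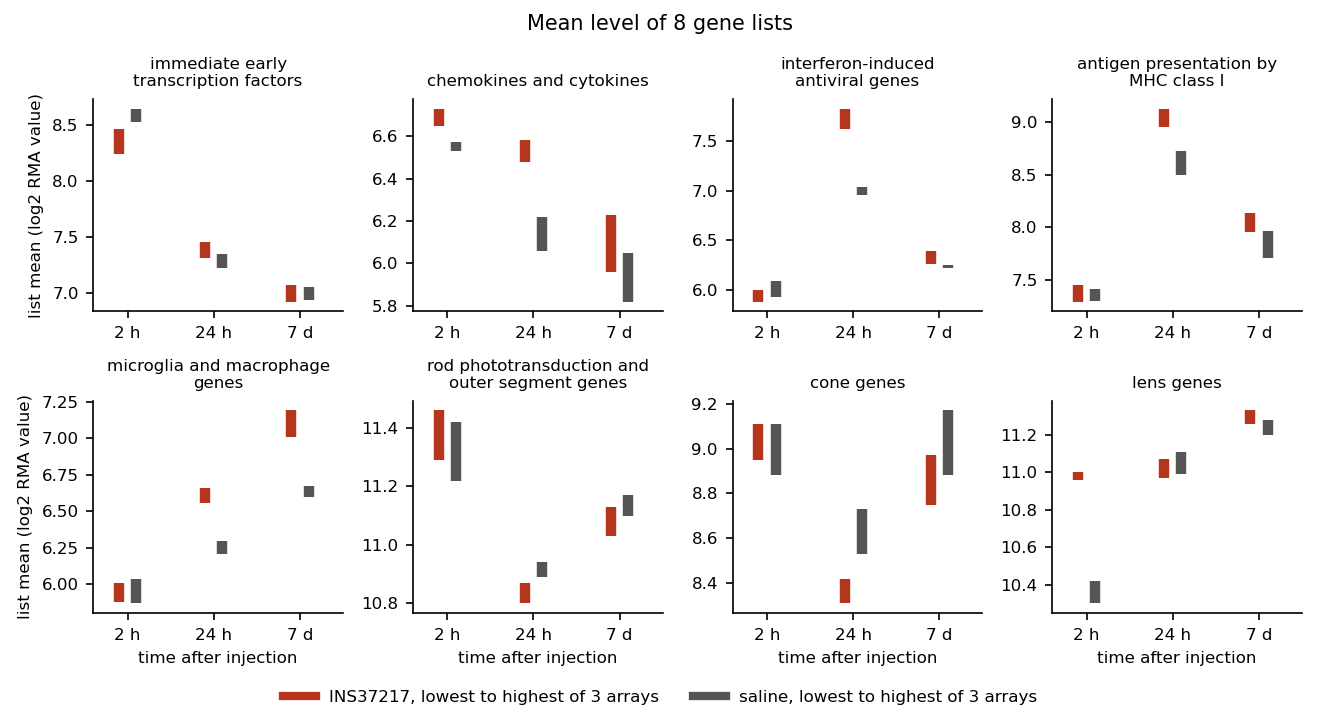
Range over 3 arrays of the mean log2 RMA value of 8 gene lists at 2 h, 24 h and 7 days, with INS37217 in red and saline in grey. The antiviral list peaked at 24 h with INS37217 (7.62 to 7.83) above saline (6.96 to 7.04), the rod and cone lists dipped at 24 h, and the lens list stood low only on the saline 2 h arrays (10.30 to 10.42).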

How the data were processed

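Labelled RNA was hybridised to Affymetrix MOE430A arrays, 18 in 6 groups of 3. The deposited values are log2 signals made with RMA, per the submitters' processing notes; no source used here gives its version. They were used without further normalization and run from 2.83 to 14.15. Of 22690 probe sets, 64 Affymetrix controls were left out and 22626 tested; 20380 name 1 gene, 691 several and 1555 none, giving 12393 genes. A gene is its probe set with the highest mean over all 18 arrays.

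The fit used limma 3.58.1 in R 4.3.3 over all 18 arrays, with 6 group means and the replicate number as a block, and Benjamini-Hochberg adjustment over all probe sets. The block was used because same-numbered arrays of different groups deviated together in all 45 pairs (r 0.426 to 0.921; 0.518 to 0.765 between INS37217 2 h and 24 h). Replicates 2 and 3 of different groups also deviated together (30 pairs, r 0.363 to 0.725) and replicate 1 opposite to both (60 pairs, r -0.847 to -0.501). These further correlations follow in part from the first, because the deviations of a group's 3 arrays from their mean cancel. Of the 18 arrays, 15 had their best match in another group at their own number (6 of 6 for replicates 1 and 2, 3 of 6 for replicate 3). What the numbers stand for is not given in the labels. Each array is a pool of retinas. With the block, the p-values measure the spread between pools that remains once the part common to same-numbered arrays is removed. Without the block they measure the full spread between the pools of a group. In both fits the precision is bounded by how few pools were measured. A saline 7-day array whose source name says 2 h enters none of the groups whose changes were tested. It enters the shared spread, the block, the choice of brightest probe sets and the saline 7-day values drawn in the figures.

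The 49 gene lists (874 of 1005 entries measured) and the groups compared were chosen with earlier results of these data known. The text names some of the genes a rule allows: the 30 largest called risers and fallers that moved the same way in all 3 pairs, up to 6 called genes per list, the 10 largest differences from saline in each direction, and a fixed set (Fos, Egr1, Atf3, Gfap, Lcn2, Fgf2, Edn2, Arr3, Glul, P2ry2, Hmox1, Ccl2). Nr4a1, Junb, Srf, Egr2, Btg2, Socs3, Il1b, Ccl9, Parp14, Gbp2, Gbp7, Oas1a, Stat2, Cx3cr1, Csf1r, Aif1, P2ry12, Cp, Steap4, Emp1, Sphk1, Nrl, Pde6b, Gnb3 and Sox9 were chosen after their values were seen. Promoters are the 250 bases before annotated starts in RefSeq (GRCm38.p6). In every list they were searched for interferon response, AP-1, cyclic AMP response, CArG, heat shock, STAT and NF-kB motifs, and no test was run. Alternatives were no block, a random block, other sets of arrays, equal array medians, quantile normalization, trend and robust variance, only the brighter probe sets, the mean of a gene's probe sets and omission of each array.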

Additional observations from a re-analysis of the deposited data

Results flagged for a closer look

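The tests of the difference between the INS37217 change and the saline change from 2 h to 24 h passed for 55 of the genes named above; values are INS37217 change minus saline change on the log2 scale. Among interferon genes the difference was 2.76 for Slfn4, 1.74 for Ifit1, 1.62 for Rsad2, 1.59 for Oasl2, 1.37 for Ifi44l, 1.27 for Ifit3, 1.15 for Usp18, 1.11 for Rtp4, 0.90 for Ifitm3, 0.85 for Ifit2, 0.76 for Parp14 and 0.65 for Parp12. Among the GTPases and MHC class I it was 1.48 for B2m, 1.43 for Iigp1, 0.96 for Gbp3, 0.77 for Igtp and 0.72 for Gbp7.

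Among genes of leukocytes and repair it was 1.60 for S100a9, 1.41 for S100a8, 1.38 for Mmp3, 1.25 for Dcn, 1.06 for Cfb, 1.04 for Ptprc, 0.91 for Lyz1, 0.90 for Chil1, 0.86 for Ccl12, 0.77 for Lyz2 and 0.54 for Msn. Among early response genes it was 1.20 for Egr2, 0.93 for Nr4a1, 0.90 for Ccn1, 0.90 for Cebpb, 0.83 for Socs3, 0.78 for Junb, 0.74 for Zfp36, 0.71 for Egr1, 0.70 for Btg2 and 0.66 for Fos. The changes of the pigment genes Pmel (0.96), Tyrp1 (0.95) and Dct (0.67) also lay above their saline changes. These values compare changes and not levels.

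The INS37217 change of lens genes lay below their saline change, by -1.31 for Crygd, -1.22 for Cryga, -1.17 for Bfsp1, -1.06 for Crygb and -0.89 for Crygf. So did the change of Kif5c (-0.95), Mid1 (-0.89), Usp22 (-0.85), Hspa1b (-0.87), Arr3 (-0.84), Icam1 (-0.65), Opn1sw (-0.64), Rpe65 (-0.62) and Nt5e (-0.57).

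Of these 55 differences, 29 were called in all 12 fits that each left out 1 array and 26 were lost in at least 1 of them; 6 were called without the replicate block, those of Slfn4, Ifit1, Oasl2, Rsad2, Crygd and Crygf.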

How the results depend on the processing

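The replicate block decided the counts most. Without it the called probe sets went from 5002 to 1476 for INS37217 and from 6564 to 1714 for saline. For the difference between INS37217 and saline they went from 242 to 13. In that test without the block 562 of the 22626 probe sets had an unadjusted limma p under 0.05, a share below 0.05. All 1476 INS37217 calls were among the 5002. With a random block the difference count was 136. With the mean of a gene's probe sets, over 12393 genes, the counts were 3101, 3810 and 109, and 270 in place of 477 for INS37217 changes of at least 1; fewer features were tested there. Leaving out 1 array gave 3451 to 5366 calls for INS37217, 4360 to 5924 for saline, 109 to 238 for the difference and 461 to 528 for the changes of at least 1. Over only the brighter probe sets the INS37217 change lay above the saline change in 67 called probe sets and below it in 177. Of the 213 genes named in the report 197 were called; 179 of these were called without the block and 192 in every fit that left out 1 INS37217 array. With the mean of probe sets Fn1, Kif5c, Top2a and Txn1 lost their calls and Cflar turned to 0.033. The other changes of sign were in genes that did not pass: leaving out 1 array gave -0.181 to 0.005 for Bfsp1, -0.119 to 0.154 for Crygd, -0.083 to 0.14 for Csf1r, -0.077 to 0.152 for Cx3cr1 -0.108 to 0.069 for Socs3 and -0.087 to 0.05 for Usp22. With replicates 2 and 3 only Crygd was 0.22, Cx3cr1 -0.08, Socs3 0.08 and Usp22 0.06, and with the mean of probe sets Csf1r was -0.09. Lists hold fewer genes over only the brighter probe sets. There 19 of the 49 list medians moved by more than the SD over the 3 pairs. Reactive glia genes went from 0.26 to 1.00 and neutrophil genes from 0.04 to 0.62. MHC class II went from 0.30 to 0.51 and cone genes from -0.59 to -0.96. The median of 4 other lists changed sign, counting the cell death genes, whose main median was 0.00. NRF2 targets and metallothioneins went from -0.11 to 0.12 and chemokines and cytokines from -0.01 to 0.05. Cell death genes went from 0.00 to -0.18, and fibroblast and sclera genes turned to -0.15. With the mean of probe sets 9 list medians moved, among them MHC class I from 1.46 to 1.08, and 2 changed sign. Those 2 were the heat shock list, from 0.08 to -0.02, and the cell death genes, which went from 0.00 to 0.03 and so did not reverse. Signals near the floor of the arrays limit the folds of the dimmest genes.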
